A study of Homo sapiens with 2 samples.

Results

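The genes described here encode the proteasome, the protease that breaks down ubiquitin-tagged proteins in the cytosol and nucleus of all human cells. They are the genes whose symbol in the array annotation is PSMA, PSMB, PSMC, PSMD, PSME or PSMG followed only by a number, read from probe sets annotated to a single gene. By this rule 41 of the 19775 genes on the arrays were members, with 77 probe sets. RefSeq lists 47 human genes with such a symbol. PSMA6 and PSME2 were read only by probe sets that carry a second symbol and so are no members, and PSMB11, PSMC5, PSMD7 and PSMD13 were not analysed here.

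The data are 2 arrays of AsPC-1, an established human pancreatic ductal adenocarcinoma (PDAC) cell line, made to find genes that differ after interference with PGR, the progesterone receptor. Cells given PGR siRNA were put on 1 array and cells given a negative control siRNA on the other. Both groups share the cell line and an siRNA transfection. The labels and the methods name different media for these cells, and neither says which PGR duplex was used for the array. With 1 array per group no test was possible, so every difference below compares these arrays and not the conditions.

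PGR itself, the targeted gene, read 73.3 on the array labelled PGR siRNA and 16.1 on the array labelled control by its brighter probe set, while its other probe set read 4.80 labelled PGR siRNA and 1.53 labelled control. All of these intensities lie below the signal floor of 97.9, the median of the named probe set values, and their order goes against the labels. Each array is therefore called by its label, and all directions rest on those labels. Of 9 epithelial and ductal markers, 7 reached the floor on both arrays, the brightest being KRT18 at 55425 labelled PGR siRNA and 48572 labelled control. KRT7 (182.1 labelled PGR siRNA, 189.3 labelled control) and MUC1 (173.6 labelled PGR siRNA, 121.7 labelled control) were much nearer the floor. On at least 1 array 8 of the 9 reached it, as did 11614 of all 19775 genes. CEACAM5, a surface antigen of many PDAC cells, was below the floor on both arrays (67.7 labelled PGR siRNA, 58.0 labelled control), and CEACAM6 read 79.3 on the array labelled PGR siRNA and 119.7 on the array labelled control. None of 6 leukocyte and endothelial markers reached the floor on both arrays, and of 5 fibroblast markers COL1A1 did. An array of a whole culture cannot tell fewer cells of a type from less RNA per cell.

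The proteasome is built from a barrel and caps. The 20S core is a stack of rings of alpha subunits (PSMA), which form the gate, and beta subunits (PSMB), of which PSMB5, PSMB6 and PSMB7 carry the proteolytic sites. The 19S regulatory particle unfolds substrates with a ring of ATPases (PSMC) and recognises and trims ubiquitin chains with non-ATPase subunits (PSMD). PSME proteins form other caps that open the gate without ATP, and PSMG proteins are chaperones that assemble the core. Interferon replaces the catalytic beta subunits by PSMB8, PSMB9 and PSMB10, which favours peptides for MHC class I. Many tumour cells depend on high proteasome activity, and its genes are usually transcribed in concert, which keeps the subunits in proportion.

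Levels of proteasome mRNA differed little between the arrays. Of 41 members, 40 reached the floor, and all 40 did so on both arrays. Their median difference, array labelled PGR siRNA minus array labelled control on the scale log2(intensity + 1), was 0.050, against 0.021 over all 11614 genes past the floor. No member differed 2-fold, and 1 of 40 (2.5%), PSME4, differed by at least 1.5-fold, a size that 8.37% of all genes reached. At least 1.2-fold higher on the array labelled PGR siRNA were 4 members (10%), PSMC1, PSMD10, PSMA5 and PSME1, beside 15.1% of all genes. At least 1.2-fold lower were 3 members (7.5%), PSME4, PSMB9 and PSMG1, beside 15.6% of all genes. The split of 4 higher and 3 lower was 1 and 3 with loess and 6 and 2 with median centring. The median of all genes also moved, to 0.0045 with loess and 0.087 with median centring. Shares of all genes past 1.2-fold were taken in the main setting only. The only measure of error in these data is the disagreement between probe sets of a gene. Over the 16 members with several probe sets past the floor on both arrays it had an SD of 0.19 on the log2 scale, and 31 of the 40 differences were within it. The median absolute difference was 0.16 over all genes past the floor, so most of those were within it too. For the members it was 0.095. This SD is a spread within the arrays and holds nothing of the spread between cultures.

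**Figure D1:**
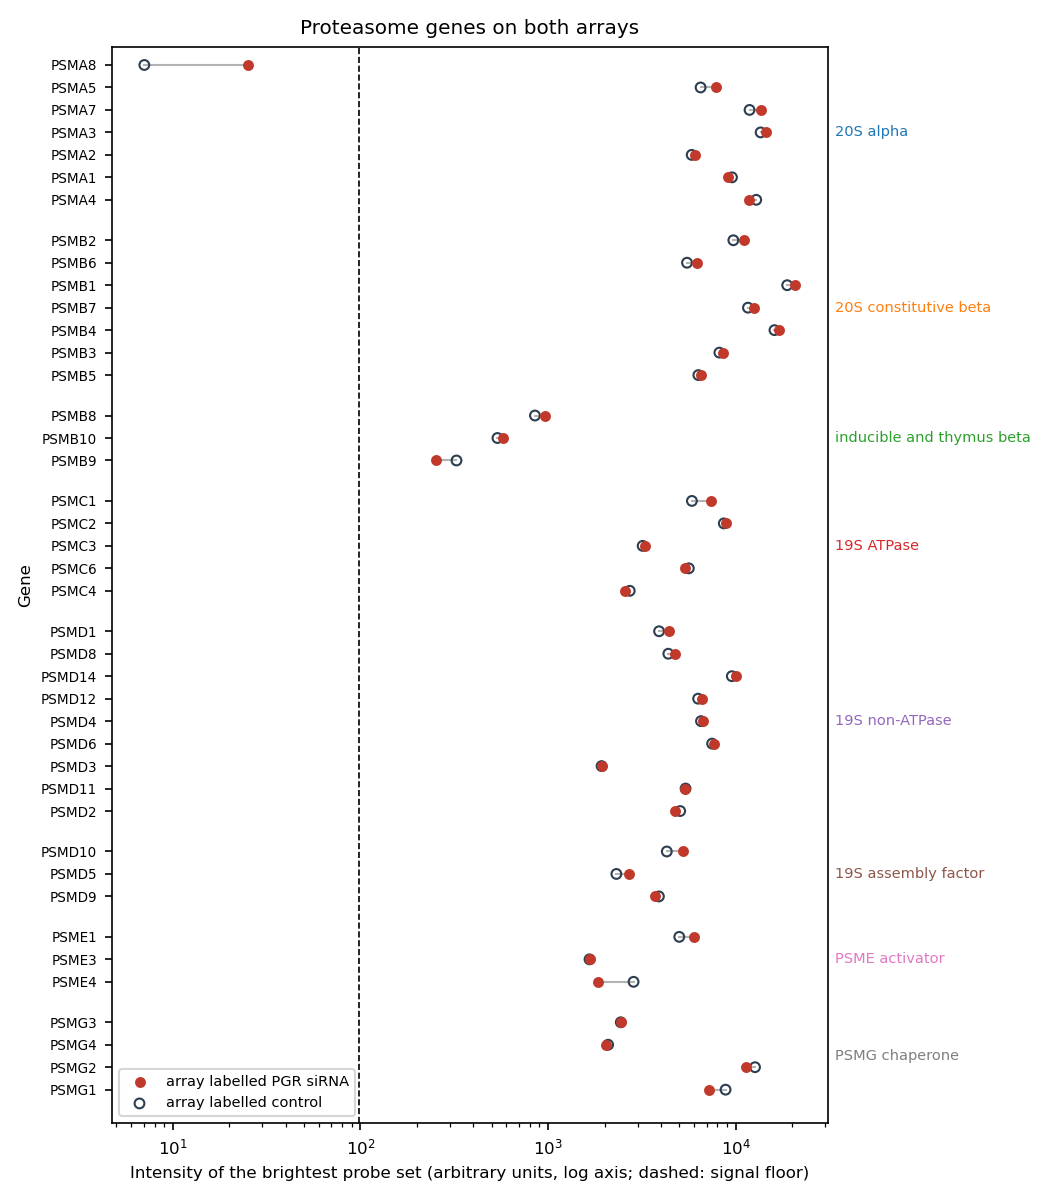
Intensity (arbitrary units, log axis) of the brightest probe set of each of the 41 proteasome genes on the array labelled PGR siRNA (filled) and the array labelled control (open), 1 value each, grouped by role, with the signal floor of 97.9 as a dashed line. The points of most genes nearly coincide, PSME4 has the widest gap among genes past the floor (1843 labelled PGR siRNA, 2857 labelled control), and PSMA8 lies below the floor. Probe sets differ in how well they bind, so intensities are not compared between genes.

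Proteasome probe sets are bright on these arrays, and among bright genes of any kind differences were smaller and more often above 0. The median member had a mean signal of 12.53 on the log2 scale, above 91.7% of the genes past the floor. At or above that signal lay 20 members and 969 genes in all. Of these 20 members, 16 (80%) read higher on the array labelled PGR siRNA, and so did 66.7% of the 969 genes, compared with 53.2% of all genes past the floor. The median difference was 0.062 for the 20 members and 0.069 for the 969 genes. In the same range 2 of 20 members (10%) were at least 1.2-fold higher, against 6.3% of the 969 genes, and 1 of 20 (5%) at least 1.2-fold lower, against 3.2%. None of the 20 was past 1.5-fold, and 0.31% of the 969 genes were. The spread of differences was also close, with an SD of 0.14 over the 20 members and 0.16 over the 969 genes. Among the 20 dimmer members, 12 read higher and the median was 0.0087. Loess and the running median take such a lean with signal out by construction, and with loess the median of all genes was 0.0045.

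**Figure D2:**
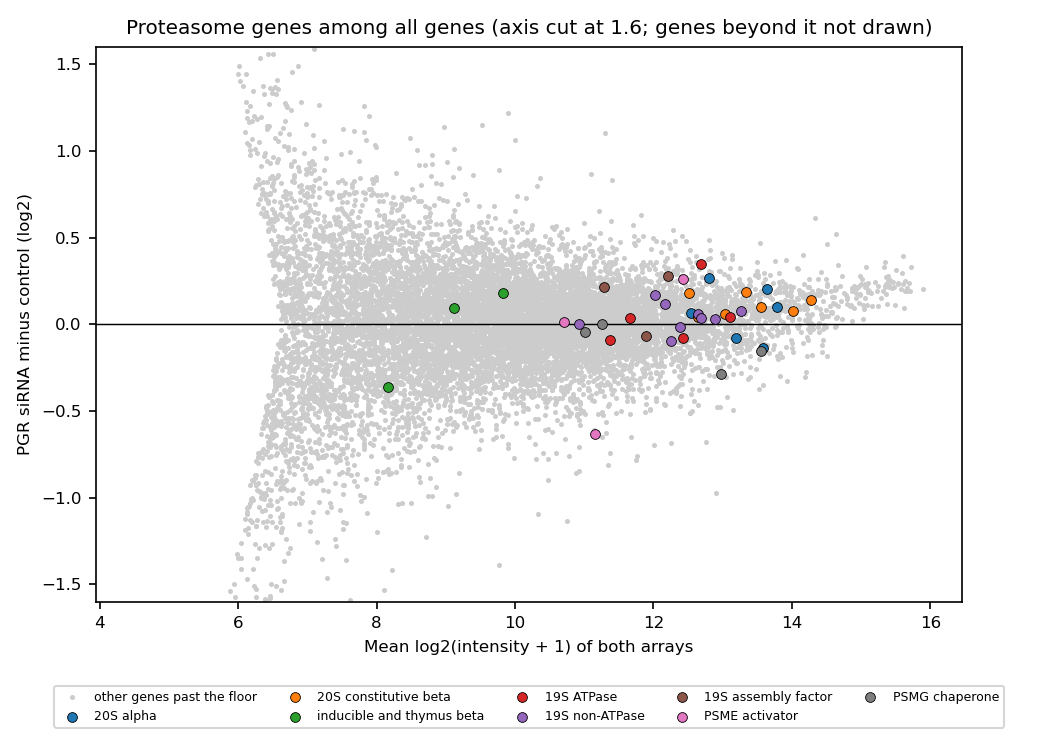
Difference between the arrays (PGR siRNA minus control by the labels, log2) against the mean log2(intensity + 1) of both arrays, with 1 point per gene past the signal floor, proteasome genes coloured by role and other genes in grey. The members sit at the bright end within the cloud of other genes, from PSME4 at -0.63 to PSMC1 at 0.35.

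The members at the ends of the range are shown with their promoters, since genes of a shared complex are often compared by shared promoter elements. By the brightest probe set the 2 highest members were PSMC1 and PSMD10 and the 2 lowest PSME4 and PSMB9. With the mean of probe sets past the floor the 2 highest were PSMA5 (1.74) and PSMB7 (0.47) and the 2 lowest PSMC2 (-0.47) and PSME4 (-0.39), of which PSMA5 and PSMC2 include a probe set below the floor on 1 array. The windows run 5′ to 3′ on the strand of the gene, from 250 bases before to 50 after the RefSeq start (GRCh38.p14). They are PSMC1 at chr14:90256303-90256602 on the plus strand, PSMD10 at chrX:108091493-108091792 on the minus strand, PSMB9 at chr6:32853942-32854241 on the plus strand and PSME4 at chr2:53970944-53971243 on the minus strand. Capitals mark matches on either strand to TGACNNNGC, the core of the element bound by NRF1 (NFE2L1) and NRF2 (NFE2L2), to CCAAT, the box bound by NF-Y, or to GAAANNGAA, a core of elements bound by interferon regulatory factors.
PSMC1: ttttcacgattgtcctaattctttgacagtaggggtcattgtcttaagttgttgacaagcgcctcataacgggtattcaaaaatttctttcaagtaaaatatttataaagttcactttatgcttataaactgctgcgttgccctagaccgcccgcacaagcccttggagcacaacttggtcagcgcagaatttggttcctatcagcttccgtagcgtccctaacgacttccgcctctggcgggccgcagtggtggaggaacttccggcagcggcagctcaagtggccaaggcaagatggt
PSMD10: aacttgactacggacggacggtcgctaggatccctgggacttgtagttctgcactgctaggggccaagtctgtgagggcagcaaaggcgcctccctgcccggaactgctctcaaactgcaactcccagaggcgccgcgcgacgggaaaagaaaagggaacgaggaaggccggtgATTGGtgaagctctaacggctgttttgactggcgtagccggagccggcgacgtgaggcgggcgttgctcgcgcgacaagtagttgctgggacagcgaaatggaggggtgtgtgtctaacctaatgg
PSMB9: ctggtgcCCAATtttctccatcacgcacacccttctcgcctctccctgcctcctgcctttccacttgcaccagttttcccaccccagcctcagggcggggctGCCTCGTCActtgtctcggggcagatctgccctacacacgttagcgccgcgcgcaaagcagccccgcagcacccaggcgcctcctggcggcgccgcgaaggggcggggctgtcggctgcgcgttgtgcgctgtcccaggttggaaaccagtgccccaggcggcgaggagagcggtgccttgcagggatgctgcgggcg
PSME4: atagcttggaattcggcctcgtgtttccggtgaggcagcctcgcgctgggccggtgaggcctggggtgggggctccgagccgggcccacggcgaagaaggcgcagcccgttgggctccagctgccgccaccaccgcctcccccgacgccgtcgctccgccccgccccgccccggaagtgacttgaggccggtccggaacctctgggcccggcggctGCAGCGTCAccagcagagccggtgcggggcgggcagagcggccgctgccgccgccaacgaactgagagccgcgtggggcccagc

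PSMC1 had no match in this window and PSMD10 had 1 CCAAT box. PSMB9 had 1 CCAAT box and 1 TGACNNNGC core, and PSME4 had 1 TGACNNNGC core. Of the 41 members, 35 had a window in the table. TGACNNNGC was found for 13 of them (37.1%), beside 16.1% of 27305 genes with a window. CCAAT was found for 17 (48.6%), beside 39.7%, and GAAANNGAA for 7 (20%), beside 9.86%. No match of one of these motifs overlapped a match of another in the members' windows. The members with GAAANNGAA were PSMB8 and PSMB10, subunits of the interferon-induced core, PSME1, PSMA4, PSMB4, PSMC2 and PSMG4. PSMB9, the remaining inducible subunit read here, had no match to it in its window. The ranges of members with and without a match overlapped for each motif. The 13 members with TGACNNNGC ranged from -0.63 to 0.26 with a median of -0.069, and the 21 past the floor without it from -0.098 to 0.35 with a median of 0.063. The 17 members with CCAAT had a median of 0.041 and the 17 without it -0.017, and for GAAANNGAA the medians were 0.074 over 7 members with it and 0.038 over 27 without. A match is a run of letters and no evidence of binding.

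Among the alpha subunits of the core, differences lay between -0.14 and 0.27 over 6 genes past the floor, with a median of 0.081, or -0.013 when all probe sets of a gene were averaged and 0.013 when those past the floor were. PSMA5 read 7842 on the array labelled PGR siRNA and 6506 on the array labelled control, a difference of 0.27, or 0.23, under 1.2-fold, with quantile normalization, loess or the running median. Its other probe set read 106.5 labelled PGR siRNA and 10.6, below the floor, labelled control, so that its difference of 3.22 has no exact size. PSMA7 read 13687 on the array labelled PGR siRNA and 11867 on the array labelled control (0.21), and its second probe set ran the other way, at 3824 labelled PGR siRNA and 4234 labelled control (-0.15). PSMA7 thus had no single direction on these arrays. PSMA3 stood at 0.099 and PSMA2 at 0.063, with the second probe set of PSMA2 at -0.11. At the other end, PSMA4 read 11719 on the array labelled PGR siRNA and 12880 on the array labelled control (-0.14), and PSMA1 read 9070 labelled PGR siRNA and 9564 labelled control (-0.076), with its 3 probe sets between -0.076 and 0.083. PSMA8, the alpha subunit of the testis proteasome, was below the floor (25.2 labelled PGR siRNA, 7.04 labelled control), which gives no usable level. The probe sets that carry PSMA6 together with PRORP gave -0.034 and -0.029.

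All 7 constitutive beta subunits read higher on the array labelled PGR siRNA by their brightest probe set, although PSMB4 was at -0.016 with quantile normalization, at -0.013 with the running median and at -0.061 with the mean of probe sets. The differences lay between 0.041 and 0.18 with a median of 0.10, which was 0.029 with the running median, 0.041 with loess and 0.046 with quantile normalization. All 7 differences were smaller than the SD between probe sets of a member. Of the catalytic subunits, PSMB5, with the chymotrypsin-like site that bortezomib blocks, read 6511 on the array labelled PGR siRNA and 6331 on the array labelled control (0.041). PSMB6, with the caspase-like site, read 6241 on the array labelled PGR siRNA and 5507 on the array labelled control (0.18). PSMB7, with the trypsin-like site, read 12469 on the array labelled PGR siRNA and 11636 on the array labelled control (0.10). The second probe set of PSMB7, far dimmer at 205.6 labelled PGR siRNA and 113.8 labelled control, gave 0.85. The catalytic subunits were therefore each within 1.2-fold by their main probe set. Of the others, PSMB2 read 11054 on the array labelled PGR siRNA and 9727 on the array labelled control (0.18), and PSMB3 8533 labelled PGR siRNA and 8195 labelled control (0.058), with PSMB1 at 0.14 and PSMB4 at 0.074. PSMB4 had a dimmer probe set of opposite sign at -0.29, with 897.9 on the array labelled PGR siRNA and 1095 on the array labelled control. PSMB2 had one at -0.21, whose value on the array labelled PGR siRNA was below the floor.

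The inducible beta subunits did not move as a group. PSMB9, which takes the place of PSMB6 in the immunoproteasome, read 252.7 on the array labelled PGR siRNA and 325.0 on the array labelled control, a difference of -0.36. PSMB8, which replaces PSMB5, read 966.4 on the array labelled PGR siRNA and 851.6 on the array labelled control (0.18), and PSMB10, which replaces PSMB7, read 572.6 labelled PGR siRNA and 537.3 labelled control (0.092, but -0.0016 with the running median). Each of these subunits had a single probe set. PSMB9 had the lowest mean signal of the members past the floor, and the SD of differences was 0.41 over all genes past the floor and 0.16 over the 969 brighter ones. TAP1, the peptide transporter gene that is read in the opposite direction from a start 488 bases away from that of PSMB9, stood at -0.16, with 723.2 on the array labelled PGR siRNA and 809.7 on the array labelled control.

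**Figure D3:**
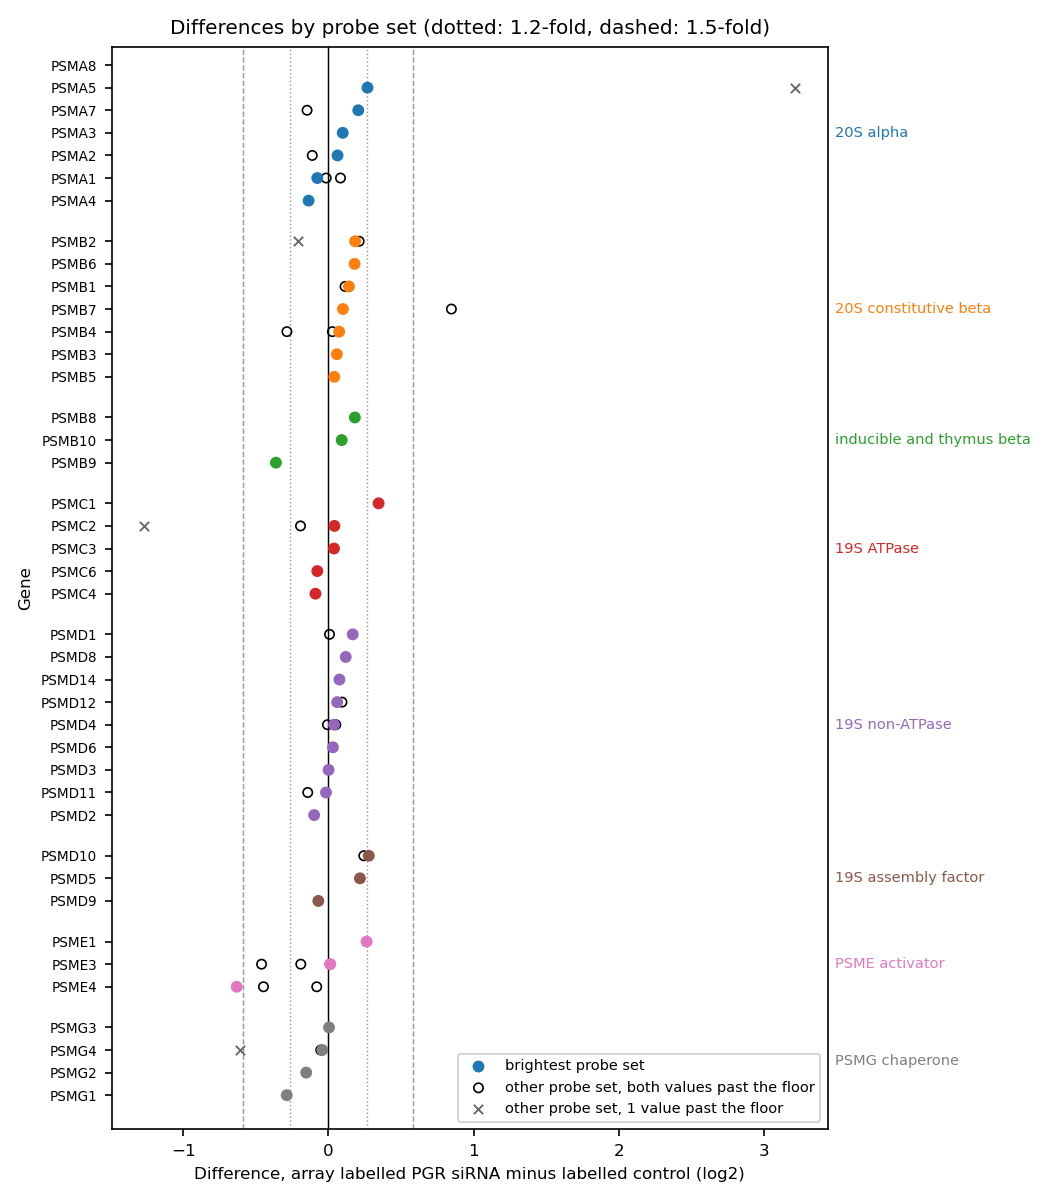
Difference between the arrays (PGR siRNA minus control by the labels, log2) for each probe set of the proteasome genes that reached the signal floor, grouped by role, with 1.2-fold and 1.5-fold as dotted and dashed lines. Filled points are the brightest probe set, open points other probe sets past the floor on both arrays and crosses those past it on 1 array. The 3 probe sets of PSME4 all lie below 0, at -0.63, -0.45 and -0.080, and the farthest cross is a dim probe set of PSMA5 at 3.22.

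The ATPases of the regulatory particle, the motor that unfolds and threads substrates, had a median of 0.038 over 5 genes. PSMC1, whose yeast counterpart helps to open the gate of the core, had the largest positive difference of all members past the floor by the brightest probe set, while with the mean of probe sets past the floor PSMA5 (1.74) and PSMB7 (0.47) stood above it. It read 7434 on the array labelled PGR siRNA and 5848 on the array labelled control (0.35), by its only probe set. It stayed past 1.2-fold under each of the 11 alternatives that read it. With a single probe set, however, averaging probe sets or changing the signal filter could not move its value. Normalization and the offset could, and there it ran from 0.31 with loess to 0.41 with median centring. The other ATPases were close to equal. PSMC2 read 8903 on the array labelled PGR siRNA and 8651 on the array labelled control (0.041), and PSMC3 read 3281 labelled PGR siRNA and 3194 labelled control (0.038). PSMC6 read 5341 on the array labelled PGR siRNA and 5632 on the array labelled control (-0.076) and PSMC4 2563 labelled PGR siRNA and 2726 labelled control (-0.089). The dimmer probe sets of PSMC2 gave -0.19 and -1.27, the last with 48.0 labelled PGR siRNA, which is below the floor, and 117.1 labelled control. With the mean of probe sets PSMC2 was at -0.47 and the median of the ATPases at -0.076.

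Non-ATPase subunits, which form the lid and include ubiquitin receptors, had a narrower spread than the ATPases by their brightest probe sets. Their 9 genes past the floor lay between -0.098 and 0.17 with a median of 0.039. None reached 1.2-fold by its brightest probe set, where 15.1% of all genes past the floor were higher and 15.6% lower. With the mean of all probe sets, PSMD6 was at -0.59 and PSMD4 at -0.58, each through 1 probe set below the floor on both arrays, and the median was 0.0011. PSMD1, a scaffold of the base, read 4389 on the array labelled PGR siRNA and 3908 on the array labelled control (0.17), with its second probe set at 0.0077. PSMD8, a lid subunit, read 4756 on the array labelled PGR siRNA and 4378 on the array labelled control (0.12). PSMD14, the deubiquitinase that removes the chain from a substrate, stood at 0.076, and PSMD4, a ubiquitin receptor, at 0.039. PSMD12 and PSMD6, both of the lid, stood at 0.060 and 0.032, and PSMD3 at 0.0011. PSMD2, the scaffold that binds shuttle factors, read 4730 on the array labelled PGR siRNA and 5063 on the array labelled control (-0.098), and PSMD11 read 5349 labelled PGR siRNA and 5410 labelled control (-0.017).

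Chaperones that carry PSMD symbols but leave the finished particle differed more. PSMD10, or gankyrin, an oncoprotein that helps to assemble the ATPase ring, read 5212 on the array labelled PGR siRNA and 4297 on the array labelled control (0.28). Its second probe set read 3055 on the array labelled PGR siRNA and 2580 on the array labelled control (0.24), the same direction at nearly the same size. PSMD5 read 2690 on the array labelled PGR siRNA and 2314 on the array labelled control (0.22), and PSMD9 read 3717 labelled PGR siRNA and 3900 labelled control (-0.069). Of these chaperones PSMD10 alone was past 1.2-fold, beside 15.1% of all genes past the floor that were higher by that size. PSMD10 was under 1.2-fold with the mean of its probe sets (0.26), loess (0.25) and the running median (0.24).

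The chaperones of the core had a negative median, -0.097 over 4 genes, and it was below 0 under each alternative. The medians of the other roles were above 0 in the main setting, but those of the ATPases and the alternative caps were below 0 with the mean of probe sets (-0.076 and -0.16), loess (-0.0058 and -0.0021) and the running median (-0.0051 and -0.027). The inducible subunits had -0.0016 with the running median and the alpha subunits -0.013 with the mean of all probe sets. PSMG1 and PSMG2 act as a pair that guides alpha rings together. PSMG1 read 7244 on the array labelled PGR siRNA and 8840 on the array labelled control (-0.29), or -0.22 with median centring, under 1.2-fold. PSMG2 read 11414 on the array labelled PGR siRNA and 12689 on the array labelled control (-0.15). Their partners PSMG3 and PSMG4 were nearly equal between the arrays, PSMG3 at 2449 labelled PGR siRNA and 2442 labelled control (0.0043), and PSMG4 at 2030 labelled PGR siRNA and 2091 labelled control (-0.042). A dim probe set of PSMG4 gave -0.61, with 78.8 labelled PGR siRNA, which is below the floor, and 120.8 labelled control.

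Alternative caps spread most widely by the brightest probe set. With the mean of probe sets past the floor they ran from -0.39 to 0.26. The ATPases then ran from -0.47 to 0.35 and the alpha subunits from -0.14 to 1.74. PSME4 (PA200), a cap linked to the turnover of acetylated histones, read 1843 on the array labelled PGR siRNA and 2857 on the array labelled control, a difference of -0.63. Of its other probe sets, the dimmest read 220.9 labelled PGR siRNA and 301.6 labelled control (-0.45), and the remaining probe set 346.1 labelled PGR siRNA and 365.9 labelled control (-0.080). All 3 probe sets were lower on the array labelled PGR siRNA, but they disagreed in size, and their mean of -0.39 was past 1.2-fold and not past 1.5-fold. PSME1, which with PSME2 forms the interferon-induced cap PA28, read 6009 on the array labelled PGR siRNA and 5007 on the array labelled control (0.26), at the edge of 1.2-fold and under it with quantile normalization, loess, the running median or an offset of 16. The probe set that carries PSME2 together with MIR7703 read 4829 on the array labelled PGR siRNA and 4494 on the array labelled control (0.10). PSME3, the nuclear relative of PA28, read 1679 on the array labelled PGR siRNA and 1664 on the array labelled control (0.013). A dimmer probe set of PSME3 read 785.8 on the array labelled PGR siRNA and 1082 on the array labelled control (-0.46).

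Of the 17 members with several probe sets past the floor, 9 had all of them on the same side of 0. PSMA5, PSMB7, PSMC2, PSME4 and PSMG4 had a probe set that differed from the brightest by over 0.5. In PSMA5, PSMC2 and PSMG4 that probe set was below the floor on 1 array. The remaining 23 members past the floor rest on a single probe set there. The genes of the complex are scattered over the genome, with at most 6 members on a chromosome (chromosome 17) and 5 on chromosome 14. The chromosome 14 members are PSMA3, PSMB5, PSMC1, PSMC6 and PSME1, which ranged from -0.076 to 0.35.

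**Figure D4:**
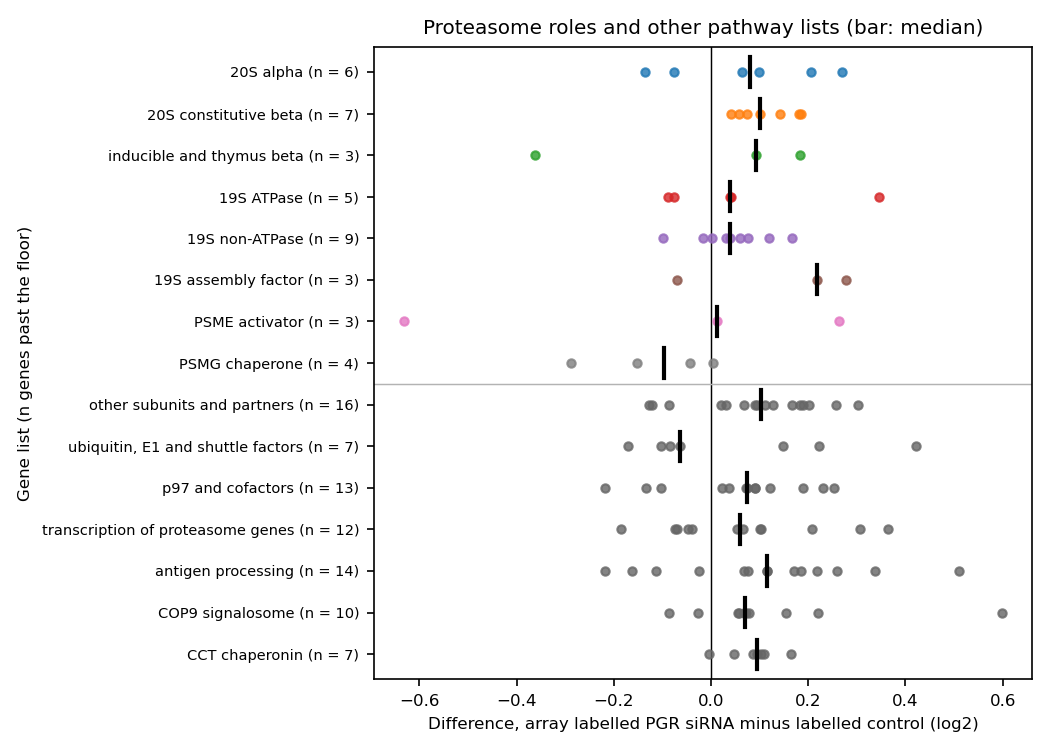
Difference between the arrays (PGR siRNA minus control by the labels, log2) for each gene past the floor, by role within the proteasome (coloured) and for other pathway lists (grey), with the median of each as a bar and the number of genes after its name. The constitutive beta subunits lie between 0.041 and 0.18 (PSMB4 at -0.016 with quantile normalization), the PSMG chaperones have a median of -0.097, and the alternative caps spread from -0.63 to 0.26.

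Genes that work with the proteasome gave values of like size. Of 16 further subunits and partners, 1 was at least 1.2-fold higher and none lower, with a median of 0.10, where 15.1% of all genes past the floor were higher and 15.6% lower by that size. AKIRIN2, which brings proteasomes into the nucleus, was highest at 0.30, with 2869 on the array labelled PGR siRNA and 2326 on the array labelled control, and another of its probe sets at -0.33. UBE3C, a ubiquitin ligase that binds the proteasome, was lowest at -0.13. POMP, the chaperone of beta subunits, stood at 0.19 with a second probe set at -0.35, ADRM1, a ubiquitin receptor, at 0.094 and SEM1, a small lid subunit, at -0.12. Ubiquitin, its activating enzymes and shuttle factors had a median of -0.064 over 7 genes, with the shuttle factor UBQLN4 highest at 0.42, its only gene past 1.2-fold, and UBQLN1 lowest at -0.17. The list of p97 and its cofactors, which extract proteins for degradation, held 13 genes past the floor, with a median of 0.073 and no gene past 1.2-fold. VCP, which is p97 itself, was highest at 0.25 and YOD1, a deubiquitinase of p97 substrates, lowest at -0.22, with its second probe set at 0.38.

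Among 12 regulators of proteasome transcription, 2 were at least 1.2-fold higher on the array labelled PGR siRNA and none lower, beside 15.1% higher and 15.6% lower of all genes past the floor. NFE2L1, the factor that raises proteasome genes when the protease is inhibited, was highest, with 5199 on the array labelled PGR siRNA and 4037 on the array labelled control (0.36). Its 3 probe sets past the floor ran from 0.050 to 0.36. STAT3 was at 0.31, NFE2L2 at -0.038 and MAFF, a small Maf protein that pairs with these factors, lowest at -0.19. Antigen processing genes, which use the peptides of the immunoproteasome, had a median of 0.12 over 14 genes, of which NLRC5 and CALR, a chaperone that loads MHC class I, were at least 1.2-fold higher, a size that 15.1% of all genes reached. NLRC5, an activator of MHC class I genes, was highest at 0.51, with 161.9 on the array labelled PGR siRNA and 113.4 on the array labelled control, and CALR stood at 0.34. ERAP2, a peptidase that trims peptides, was lowest at -0.22, with its probe sets from -0.36 to 0.71. IRF1, an interferon factor upstream of PSMB9, read 329.2 on the array labelled PGR siRNA and 355.9 on the array labelled control (-0.11), but a second probe set, past the floor on at least 1 array, stood at 2.52.

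The spread of other large complexes was set beside that of the proteasome. The 40 proteasome genes had a median of 0.050 and an SD of 0.18, and the COP9 signalosome, whose subunits are related to those of the lid, had a median of 0.071 and an SD of 0.19 over 10 genes. GPS1, a signalosome subunit, was its only gene past 1.2-fold, and past 1.5-fold, with 1202 on the array labelled PGR siRNA and 793.5 on the array labelled control (0.60). Of all genes past the floor, 15.1% were at least 1.2-fold higher, 15.6% at least 1.2-fold lower and 8.37% past 1.5-fold either way. The next highest, COPS9, stood at 0.22, so the SD of this list is widened by GPS1. COPS7B was lowest at -0.086, with its second probe set at 0.28. The CCT chaperonin, which folds actin and tubulin, had a median of 0.094 and an SD of 0.053 over 7 genes, from CCT8 at -0.0041 to CCT4 at 0.17. Within the proteasome, by the brightest probe set, the 7 constitutive beta subunits had an SD of 0.058 and the 9 non-ATPase subunits of 0.078. These were the smallest of the roles. The SDs of the other roles ran from 0.13 for the PSMG chaperones to 0.46 for the alternative caps. This ranking does not carry over to the mean of all probe sets, where PSMB7 was at 0.47, PSMD4 at -0.58 and PSMD6 at -0.59. No test of these differences between complexes was possible with 1 array per group.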

How the data were processed

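Total RNA of AsPC-1 cells was labelled with biotin and hybridised to 3′ expression arrays, 1 per group. The deposited values are intensities on a linear scale, 1 for each probe set. The authors' summary of probes and background correction are not given in the sources used here. With 2% of values trimmed from either end, both arrays averaged 500.1, a common scaling that takes out differences in overall brightness.

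Probe sets with 1 gene symbol (41097) were used, symbols were updated through gene identifiers for 41043, and 1801 with several and 11777 with none were left out. Values were taken as log2(intensity + 1), and the probe set of highest mean signal stood for a gene. A signal floor was set at the median value of probe sets with a gene name, 97.9, and a gene was counted if its higher value reached it. Since each group was 1 array, nothing was tested, and 1.2-fold, 1.5-fold and 2-fold were rules of size. All 41 members were accounted for. Named were the 2 highest and 2 lowest of each role, the catalytic subunits, members past 1.2-fold, and those with discordant probe sets, and in other lists the extremes. Genes named beyond this rule, such as POMP, ADRM1, SEM1, STAT3, CALR, NFE2L2, IRF1 and TAP1, were chosen for their role after the values were seen. The members and lists were chosen with earlier results of these data known. The comparison with genes of like signal was added after the data were seen. Alternatives were the mean of probe sets, median centring, quantile normalization, loess (span 0.7), a running median over 201 genes, an offset of 16, other signal filters and other units of counting. The calculation was tested on simulated data with differences of 2-fold or more put in. No member past the floor differed that much by its brightest probe set, so recovery of sizes near 1.2-fold was not tested. Promoter sequences are from RefSeq (GRCh38.p14). Scripts ran in Python 3.11.15 with pandas 2.3.3 and numpy 2.4.6, loess came from statsmodels 0.14.6, scipy 1.17.1 gave the trimmed mean, and figures were drawn with matplotlib 3.10.9.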

Additional observations from a re-analysis of the deposited data

Results flagged for a closer look

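A probe set annotated to PSMA2 together with C7orf25, outside the members because of its second symbol, read 331.6 on the array labelled PGR siRNA and 251.4 on the array labelled control (log2 difference 0.40). It had the largest difference among the probe sets that carry a proteasome symbol beside another, which the main setting left out. It was 1.3-fold higher, and 15.1% of all genes past the floor were at least 1.2-fold higher. The other probe set with the same pair of symbols gave 0.080, and the probe sets of PSMA2 alone gave 0.063 for the brightest and -0.11 for the other.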

How the results depend on the processing

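The median difference of the members was 0.050 and ran from 0.0027 to 0.12 over 12 alternatives. The median of all genes moved with it. With the mean of all probe sets it was 0.0025, beside 0.0027 for the members, and with median centring 0.087, beside 0.12. Shares of all genes past each fold were taken in the main setting only, so the counts under alternatives have none beside them. When all probe sets of a gene were averaged, dim ones included, 7 members were at least 1.2-fold lower, against 3, and 3 were past 1.5-fold, against 1. The median was then -0.076 for the ATPases and -0.16 for the alternative caps, with the mean of probe sets past the floor -0.076 and -0.16, and counting probe sets -0.076 and -0.14, with 8 probe sets at least 1.2-fold lower and 5 past 1.5-fold. Median centring left 0 members past 1.5-fold (PSME4 at -0.57). Members at least 1.2-fold higher numbered 4, but 2 after quantile normalization and 1 after loess or the running median. With no signal filter 2 were past 1.5-fold, because PSMA8 enters. PSMC1, PSMB9 and PSME4 kept their side of 1.2-fold in each alternative that read them, and PSMB9 was not read with the filter at the 75th percentile. PSMC1 and PSMB9 have a single probe set each, so averaging probe sets or changing the signal filter could not move their values. PSMA5 fell under 1.2-fold in 3 alternatives, PSMD10 and PSME1 in 4 each and PSMG1 in 1. Of 438 values of single members under alternatives, 9 moved by more than the SD of 0.26 between probe sets of a gene. None of the 1.2-fold differences changed sign, but smaller ones did. With the mean of all probe sets PSMA3 went from 0.099 to -0.92 and PSMC2 from 0.041 to -0.47. In the same setting PSMD4 went from 0.039 to -0.58 and PSMD6 from 0.032 to -0.59. The number of arrays limits the precision, and leaving out an array was not possible.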
